A study of Mus musculus with 2 samples.

Results

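The Acod1 and Clec4e inflammatory macrophages are the cells of 2 cultures with the highest share of transcripts in Acod1, Clec4e, Cxcl3, Ptges and Slc7a11. They were chosen by these measured levels. Among barcodes with at least 500 detected genes, at most 10% mitochondrial UMIs, at least 5000 UMIs and less than 5% of UMIs in S100a8 and S100a9, the share of UMIs in the 5 genes was taken as a score, and the top 5% of each library by this score were the members. This gave 304 of 6087 kept cells in the control library and 262 of 5242 kept cells in the mutant library, or 566 of 11329 kept cells, out of 12320 barcodes. As the rule takes the same percentage of each library, the number of members does not measure how common such cells were.

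Macrophages that sense microbial or cell-derived danger signals switch on chemokines, receptors and metabolic enzymes, largely through NF-kB, and many of them also release type I interferon, which acts back on the culture to induce interferon-stimulated genes (ISGs). Acod1 makes itaconate from a citrate cycle intermediate, Clec4e encodes the glycolipid receptor Mincle, Cxcl3 is a neutrophil-attracting chemokine, Ptges makes prostaglandin E2, and Slc7a11 is the cystine importer that feeds glutathione synthesis. All of them are known as genes that activated macrophages induce, although not necessarily by the same factors or in the same cell.

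scRNA-Seq was performed on murine BMDMs, the myeloid precursors from which osteoclasts (OCs) form in culture, with 1 library of the control group and 1 of LysM-Cre;Arid1afl/fl mice, called mutant here. Both cultures were grown with M-CSF at 50 ng/ml and RANKL at 100 ng/ml, were taken 24 h after RANKL was added, and came from mice aged 4 to 6 weeks. The Cre is driven by Lyz2, a gene of the myeloid lineage as a whole, and recombines the floxed allele of Arid1a, which encodes a DNA-binding subunit of BAF remodelers. The exact genotype of the control animals and the number of animals behind each library were not given in the sources used here.

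With 1 library per genotype no difference has a replicate check, so there is no test across samples and no p-value below. The level of a gene is its UMI total in a set of cells, scaled to all UMIs of those cells (CPM). Parentheses hold 95% exact intervals for counting error alone (Poisson for levels, conditional for ratios, Clopper-Pearson for shares of cells). The libraries held 164004706 and 131800059 UMIs, control and mutant in that order here and throughout. Members had a median depth of 24517.5 UMIs against 24281 in the rest of the control library, and of 22929.5 against 22484 in the mutant library. Their median share of ribosomal protein UMIs was lower, at 18.3% against 22.1% and 13.5% against 16.3%. Barcodes called as doublets made up 3.62% of control members (5.38% of the rest) and 1.91% of mutant members (5.08%). The libraries shared 8 cell barcodes, of which none was a control member and 1 was a mutant member. Arid1a, the targeted gene (chromosome 4 from 133406304 to 133484080, minus strand), was counted at 52.5 CPM in control and 15.6 CPM in mutant members, a log2 ratio of -1.75 (-2.08 to -1.43), and was thus lower in the mutant members but not at 0.

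The 5 genes lie on different chromosomes (GRCm39, GENCODE M39). Acod1 (ENSMUSG00000022126) spans chromosome 14 from 103284413 to 103294009 on the plus strand, and Clec4e (ENSMUSG00000030142) spans chromosome 6 from 123258748 to 123266829 on the minus strand. Cxcl3 (ENSMUSG00000029379) is on chromosome 5 from 90933962 to 90937459, plus strand. Ptges (ENSMUSG00000050737) is on chromosome 2 from 30779483 to 30820196, and Slc7a11 (ENSMUSG00000027737) is on chromosome 3 from 49846975 to 50398070, both on the minus strand. Acod1, Ptges and Slc7a11 each overlap annotated genes on the opposite strand. Whether counting used the strand was not stated, so part of their UMIs could belong to those neighbours.

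Because the members were set by the joint level of these genes, the stretches just before their start sites were searched for the motifs of factors known to drive such genes. RefSeq promoter windows from 250 bases before to 50 bases after the start were found for all 5 genes. They come from GRCm38.p6, another build than the GRCm39 coordinates above. The NF-kB motif (GGG, any 3 bases, then TTCC, on both strands as for all motifs) was found in Cxcl3 alone of the 5, and in 5.56% of 32851 promoters. The motif of ATF4 with C/EBP (TGATGNAA) was found in Slc7a11 alone, and in 3.97% of all promoters. The windows before Cxcl3 (chr5:90786001-90786100, plus strand) and Slc7a11 (chr3:50443614-50443713, minus strand) are shown because the 2 genes carry these different motifs. Each line ends at the base before the start site, and capitals mark the matches.
Cxcl3: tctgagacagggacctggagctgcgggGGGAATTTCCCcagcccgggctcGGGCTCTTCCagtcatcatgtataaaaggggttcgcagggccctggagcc
Slc7a11: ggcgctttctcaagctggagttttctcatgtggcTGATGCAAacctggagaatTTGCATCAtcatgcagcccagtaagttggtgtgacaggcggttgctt
The longer run of capitals in Cxcl3 holds a match on each strand that overlap each other, and Slc7a11 holds 1 match on each strand. A C/EBP motif (TTGCNNAA, 10.8% of all promoters) was found in Clec4e and Slc7a11, in the latter outside the TGATGNAA matches. The motifs of NRF2 (TGACNNNGC, 12.4%), interferon response factors (GAAA, any 2 bases, then GAAA, 3.44%) and AP-1 (TGANTCA, 7.81%) were found in none of the 5 windows. These matches describe letters and no binding was measured.

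Members differed from their libraries most by Cxcl3 and Acod1 in the control group and by Cxcl3 and Ptges in the mutant group, which the rule itself fixes and which is therefore given as a description. Clec4e had the most UMIs. It stood at 650 CPM in control members against 77.2 CPM in the rest, and at 1065 against 124 CPM in the mutant library. Acod1 stood at 165 against 10.7 CPM in the control and at 522 against 80.1 CPM in the mutant library. Cxcl3 was counted at 53.3 against 1.58 CPM and at 111 against 5.31 CPM. Ptges was counted at 102 against 8.52 CPM and at 164 against 9.50 CPM, and Slc7a11 at 54.2 against 9.16 CPM and at 99.7 against 18.3 CPM. Members made up 5% of cells but held 63.8% of all Cxcl3 UMIs of the control library and 51.0% of those of the mutant library, compared with 30.5% for Clec4e in the control library. Cxcl3 was at the same time the least often seen, with a UMI in 16.1% of control and 23.7% of mutant members, whereas Clec4e had a UMI in 97.7% and 97.3%.

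**Figure D1:**
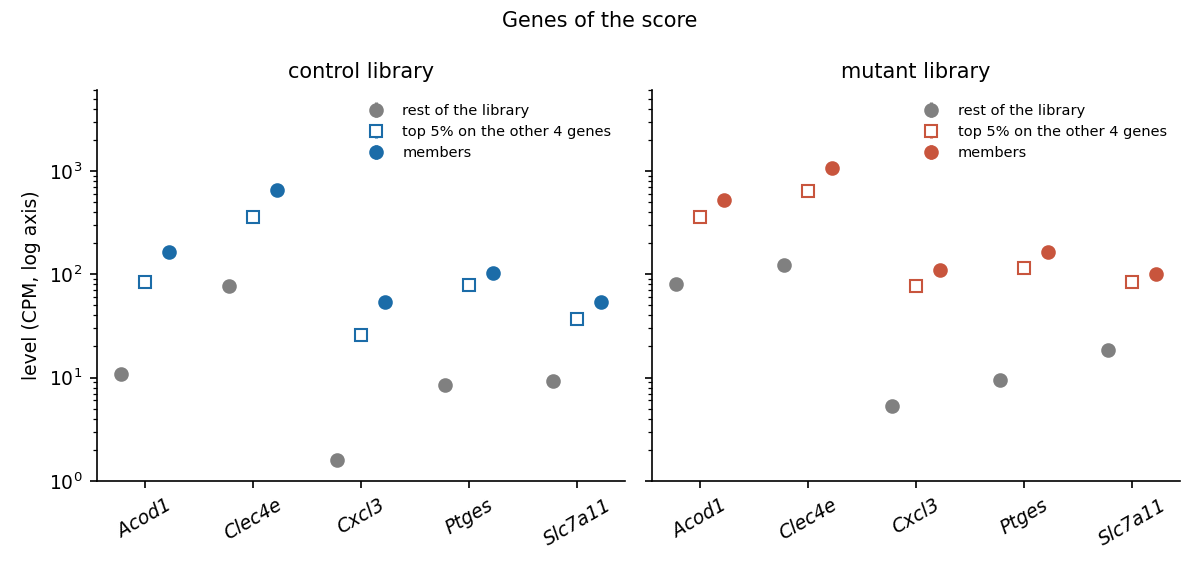
Level of each of the 5 genes in CPM (log axis) in the rest of the library (grey), in the cells chosen on the other 4 genes (open squares) and in the members (filled circles), for the control (left) and mutant (right) library. Bars are 95% Poisson intervals, mostly smaller than the points. Each gene is also higher in cells chosen without it, for example Cxcl3 at 26.0 CPM against 3.01 CPM in the other control cells.

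To see how far the 5 genes occur in the same cells, each was left out of the score in turn and the top 5% were chosen on the other 4, so that the level of the left-out gene was not set by the choice. Each left-out gene was higher in the cells so chosen, in both libraries. Cxcl3 had the largest ratios, with a log2 of 3.11 (2.87 to 3.35) in the control and 3.46 (3.30 to 3.63) in the mutant library, followed by Ptges at 2.996 (2.86 to 3.13) and 3.26 (3.12 to 3.39). Acod1 stood at 2.50 (2.37 to 2.62) and 2.03 (1.96 to 2.09), Clec4e at 1.97 (1.91 to 2.03) and 2.13 (2.08 to 2.18), and Slc7a11 at 1.86 (1.67 to 2.04) and 2.14 (2.01 to 2.28). Acod1 was thus above the latter 2 in the control library and the lowest of the 5 in the mutant library, where its interval overlaps theirs. Leaving out Clec4e changed the cells most, as 165 of 304 and 157 of 262 of the cells chosen without it were members. Each UMI was also assigned at random, with even chance, to one of 2 sets, and choosing cells on the first set and measuring the summed 5 genes on the other gave log2 ratios of 3.08 and 2.96, compared with 3.26 and 3.05 when the same UMIs served for both.

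Joint expression within a cell was nevertheless loose. Across all kept cells the genes correlated weakly in pairs, with Pearson's r on log counts from 0.05 (Ptges with Slc7a11) to 0.29 (Acod1 with Clec4e) over 6087 control cells and from 0.09 (Cxcl3 with Ptges) to 0.38 (Acod1 with Clec4e) over 5242 mutant cells. These cells share a library and differ in depth, so the values are descriptions. A UMI of all 5 genes was found in 9 control and 20 mutant members. Most members had UMIs of 2 or 3 of them (213 of 304 control and 165 of 262 mutant members).

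The cutoff of the score differed between libraries. The lowest member score was 571 CPM in the control library, with the next cell just outside at 570 CPM, and 1170 CPM in the mutant library, with the next cell at 1168 CPM. At the control cutoff, 788 of 5242 mutant cells (15.0%, 14.1 to 16.0) would have been members, against the 304 control cells. Conversely, 68 control cells (1.12%) reached the mutant cutoff. At an equal depth of 5000 UMIs per cell, at least 3 UMIs of the 5 genes were found in 7.77% (7.11 to 8.47) of control and 19.2% (18.1 to 20.3) of mutant cells. The median cell outside the members scored 63.5 CPM in the control library and 143 CPM in the mutant library.

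**Figure D2:**
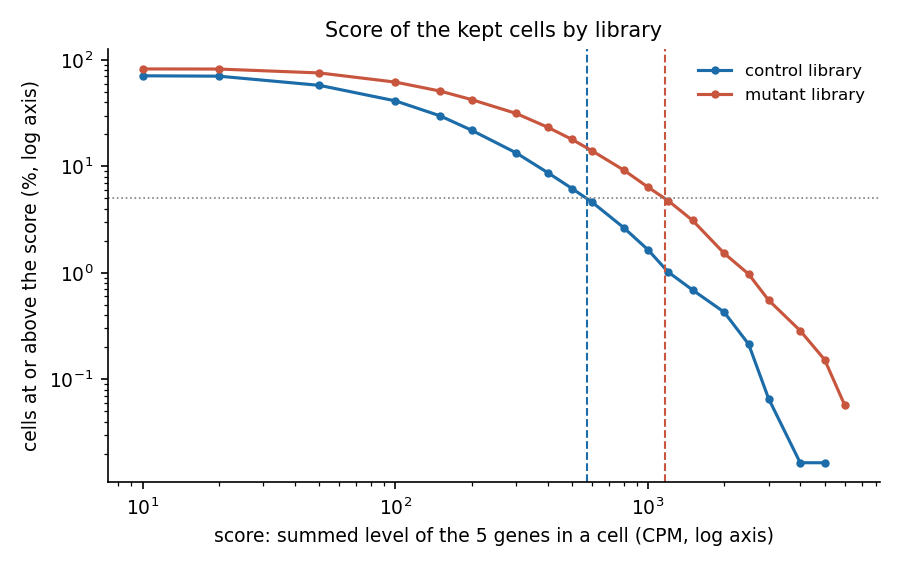
Percentage of kept cells (log axis) at or above a score, the summed level of the 5 genes in a cell in CPM (log axis), for the control (blue) and mutant (red) library. The dotted line marks 5% and the dashed lines the lowest member score of each library, 571 and 1170 CPM.

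Free RNA in the droplets can give UMIs in cells that do not express a gene. The cells left out for S100a8 and S100a9, a gate that neutrophils would fill, served as comparison. In the control library 14 such cells (median 7345 UMIs) had no Acod1 UMI at 5000 UMIs per cell, which allows a share of up to 23.2%, and in the mutant library 70 such cells (median 10765.5 UMIs) had one in 11.4% (5.07 to 21.3). Members at the same depth had an Acod1 UMI in 37.2% (31.7 to 42.9) and 80.2% (74.8 to 84.8). For Clec4e the S100 cells stood at 21.4% (4.66 to 50.8) and 8.57% (3.21 to 17.7), and members at 90.1% and 90.5%. The comparison cells may express these genes to some degree themselves, so their shares may lie above the background.

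The label was checked on markers. All 11 macrophage markers were detected in members of both libraries and summed to 19561 CPM in control members (14045 in the rest) and 11931 CPM in mutant members (11314 in the rest). Csf1r, the M-CSF receptor, was counted at 314 and 418 CPM, and Adgre1, which encodes F4/80, at 223 and 600 CPM. Of 12 neutrophil markers, 6 and 8 had UMIs in members, with a summed level of 86.8 and 94.8 CPM (68.7 and 145 in the rest), and Ltf, Elane, Cxcr2 and Retnlg were at 0 in the members of both libraries. Stromal markers had UMIs for Dcn alone (1 of 9 genes, 2.60 and 3.74 CPM). Lymphoid markers summed to 0.371 and 1.95 CPM, mast cell and basophil markers to 0.124 and 0.976 CPM, and erythroid markers to 0.371 and 0.163 CPM. Class II and dendritic genes summed to 41.3 and 118 CPM, with Flt3, Ccr7, Zbtb46 and Cd209a at 0 in both.

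The word inflammatory was borne out in part. Of 26 cytokines and chemokines listed, the classical interleukins were nearly absent from members. Il6 had no UMI, Il1b had none in control members and stood at 1.63 CPM in mutant members, and Il12b had 1 UMI in control members. Tnf was counted at 11.3 CPM in control members (6.74 in the rest) and at 22.9 CPM in mutant members (11.8). Chemokines dominated the list.

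Members were then compared with the rest of their own library. A gene was tested where the mean of members and rest reached 20 CPM in each library (4748 genes outside the 5), and called where its level differed by more than 1.5-fold (a log2 ratio beyond 0.58). In the control library 150 genes (3.16%) were higher and 54 (1.14%) lower in members past 1.5-fold. In the mutant library 138 (2.91%) were higher and 211 (4.44%) lower. In both libraries 83 genes (1.75%) were higher and 37 (0.779%) lower. The median log2 ratio of all genes tested was -0.05 and -0.10. As the members were picked from the same cells, the counts below are descriptions with no test.

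Cytokines and chemokines were higher in members. Of the 9 tested, 7 were higher past 1.5-fold in each library (6 of them in both) and none was lower, with a median log2 ratio of 1.48 in the control library and 1.34 in the mutant library. Ccl5, a chemokine for T cells and monocytes, led with 298 against 23.4 CPM in the control (log2 ratio 3.67, 3.59 to 3.74) and 1420 against 133 CPM in the mutant library (3.42, 3.38 to 3.46). Ccl4, which attracts monocytes and lymphocytes, followed with 188 against 43.9 CPM and 394 against 132 CPM. Cxcl10, an interferon-induced chemokine for activated T cells, stood at 373 against 122 CPM and 814 against 322 CPM. Cxcl2, a neutrophil chemokine of the same cluster as Cxcl3, stood at 247 against 88.3 CPM and 830 against 354 CPM, and Il1rn, the antagonist of the interleukin-1 receptor, at 129 against 49.8 CPM and 302 against 113 CPM. Ccl2, the main monocyte chemoattractant, differed by less than 1.5-fold, with log2 ratios of 0.55 (0.51 to 0.58) and -0.19 (-0.23 to -0.14). Ccl12 was higher in control members (97.1 against 32.3 CPM) but not in mutant members (20.01 against 26.1 CPM).

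ISGs were higher as well. Of 16 tested, 12 were higher past 1.5-fold in the control library and 9 in the mutant library, none was lower, and the medians were 1.17 and 0.89. Gbp2, an interferon-induced GTPase, stood at 45.5 against 7.46 CPM (log2 ratio 2.61, 2.44 to 2.78) and 155 against 38.7 CPM (2.00, 1.90 to 2.10). Rsad2, the antiviral enzyme viperin, stood at 117 against 28.4 CPM and 309 against 84.0 CPM. Isg15, a ubiquitin-like modifier, stood at 317 against 153 CPM and 1375 against 641 CPM. Irf9, a transcription factor of the interferon response, stood at 31.1 against 32.7 CPM and 55.6 against 52.1 CPM. The 5% of cells highest in summed ISGs were also set against the members. Of these, 42 of 304 (13.8%) were members in the control and 62 of 262 (23.7%) in the mutant library. Both shares were above the 5% of kept cells that the rule makes members, while most cells with high ISGs lay outside the members.

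**Figure D3:**
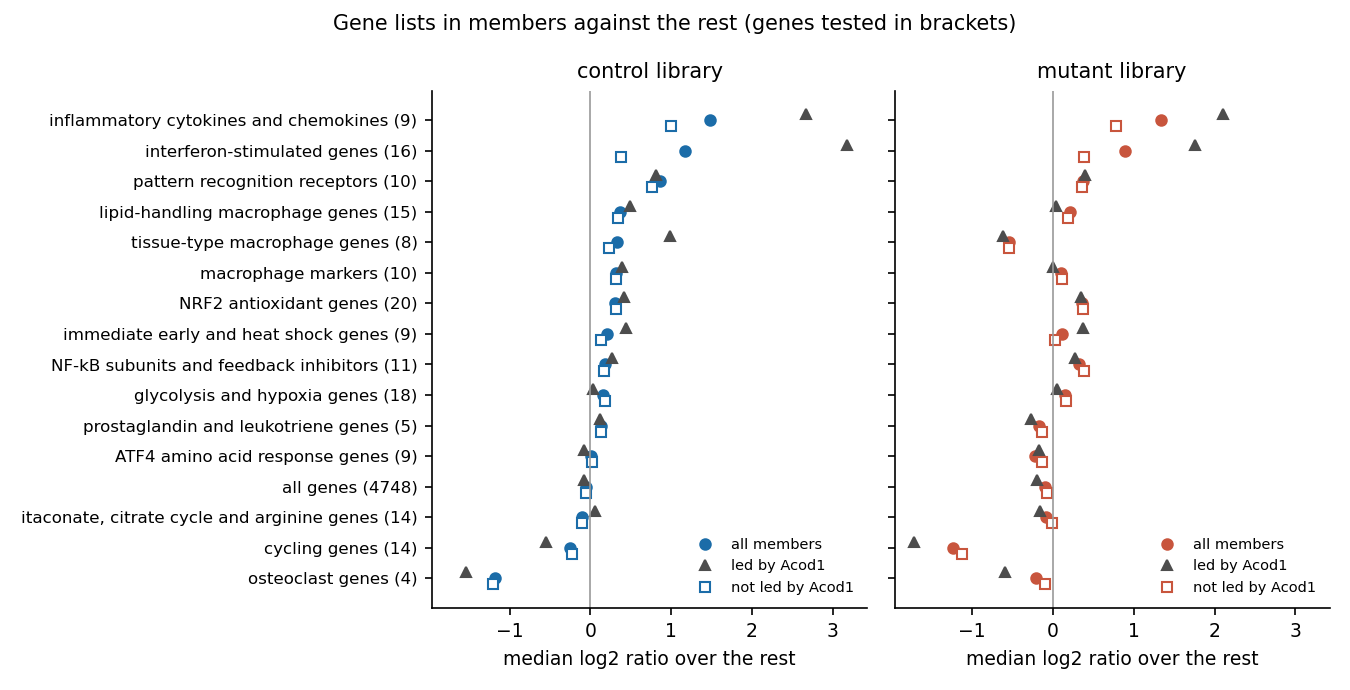
Median log2 ratio over the rest of the library for each gene list (genes tested in brackets), for all members (circles), for members in which Acod1 had the most UMIs of the 5 genes (triangles) and for the other members (open squares). For ISGs the control medians are 1.17, 3.18 and 0.37, and the mutant medians 0.89, 1.75 and 0.39.

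Members were then divided by their leading gene. In each member the gene with the most UMIs of the 5 was noted (ties went to the gene named earlier in the order above). Clec4e led in 250 control and 171 mutant members and Acod1 in 26 and 66, of which 3 were ties in each library. Ptges led in 13 and 10, Cxcl3 in 10 and 12, and Slc7a11 in 5 and 3. This split was made after the values were seen. In control members led by Acod1, ISGs summed to 9098 CPM (8867 to 9333), compared with 1550 CPM (1520 to 1580) in those led by Clec4e. In mutant members they summed to 12288 CPM (12114 to 12464) and 6169 CPM (6093 to 6246). Cytokines and chemokines summed to 11678 and 1971 CPM in the control and to 10502 and 3273 CPM in the mutant library.

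Without the members led by Acod1, 3 of 16 ISGs in the control and 2 of 16 in the mutant library were still higher past 1.5-fold. The ISG medians were 0.37 and 0.39. Over all 4748 genes tested, 115 and 113 were then higher and 46 and 175 lower, with medians of -0.05 and -0.07. Of the 9 cytokines and chemokines, 6 in the control library and 5 in the mutant library were still higher, 2 were lower in the mutant library, and the medians were 1.00 and 0.78. Most ISG calls were thus lost without these members, and most cytokine and chemokine calls were not. Of the members led by Acod1, 1 of 26 and 2 of 66 were called as doublets. The single highest cell did not carry the sums, since without it ISGs still summed to 7369 CPM in the 26 control cells and to 11806 CPM in the 66 mutant cells. The cells varied widely, however. ISGs per cell ranged from 639 to 46914 CPM with a median of 4550 CPM in the 26 control cells, and from 2824 to 59391 CPM with a median of 8296 CPM in the 66 mutant cells. The median cell outside the members stood at 918 and 4460 CPM, and 24 of 26 and 52 of 66 cells lay above it. Depth was similar, with medians of 23159 UMIs in control members led by Acod1 and 24437 UMIs in those led by Clec4e, and of 21837.5 and 23481 UMIs in the mutant library.

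Individual genes showed the same split and a reverse one. Ccl5 stood at 2565 CPM in control members led by Acod1, at 82.8 CPM in those led by Clec4e and at 23.4 CPM in the rest, and at 4176, 556 and 133 CPM in the mutant library. Cxcl10 stood at 3057, 151 and 122 CPM and at 1982, 471 and 322 CPM. Rsad2 stood at 969, 39.2 and 28.4 CPM and at 900, 118 and 84.0 CPM. In all 3 genes the members led by Clec4e were thus nearer to the rest than to the members led by Acod1. Cxcl2, Sod2 and Ptges were different. In the control library Cxcl2 stood at 72.5 CPM in members led by Acod1, below the 240 CPM of those led by Clec4e and the 88.3 CPM of the rest. Ptges stood there at 6.17 CPM (1.68 to 15.8), 81.5 CPM and 8.52 CPM, but in the mutant library at 114, 137 and 9.50 CPM. As Ptges is a gene of the score and of the split by leading gene, both choices shaped its levels, which are a description. Sod2, the mitochondrial superoxide dismutase induced by NF-kB, stood at 321, 481 and 238 CPM in the control and at 715, 792 and 293 CPM in the mutant library.

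**Figure D4:**
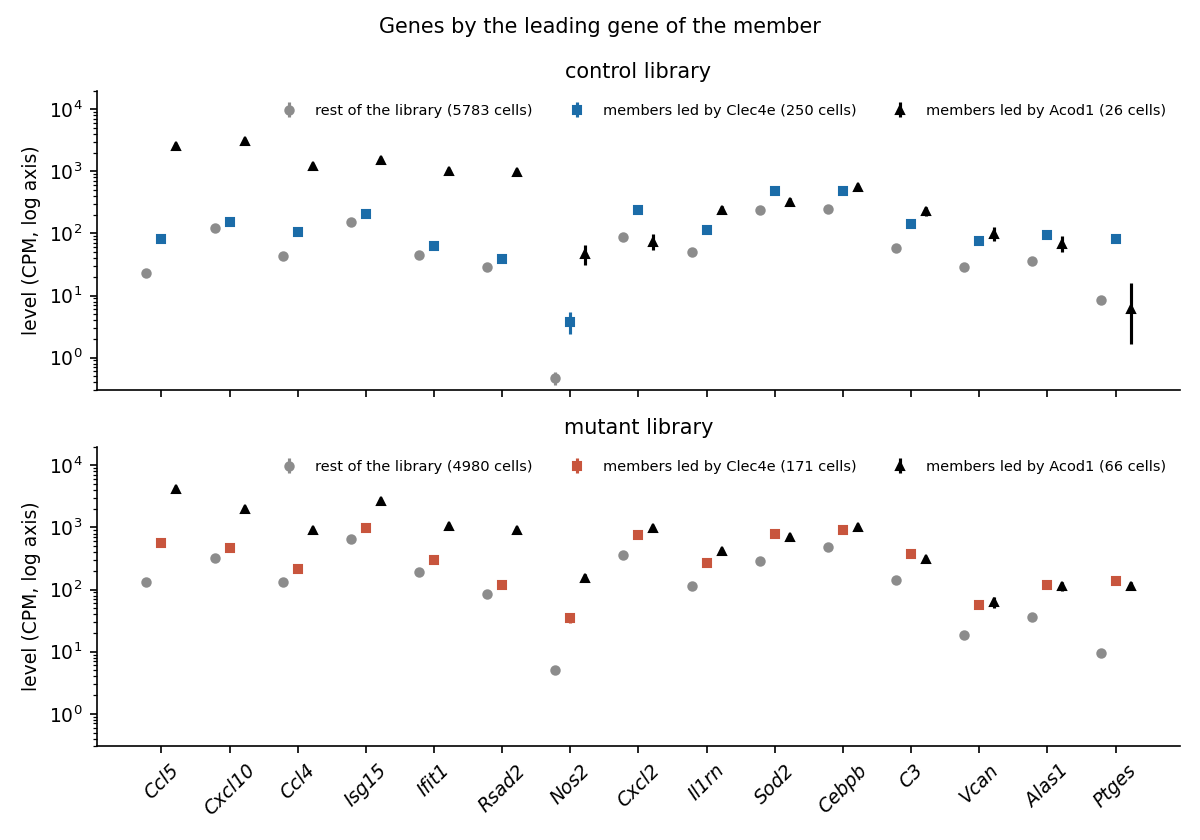
Level in CPM (log axis) of 15 genes in the rest of the library (grey), in members led by Clec4e (squares) and in members led by Acod1 (triangles), for the control (top) and mutant (bottom) library, with 95% Poisson intervals. From Ccl5 to Rsad2 the triangles stand well above the squares, while from Sod2 to Alas1 both lie above the rest. For Sod2 and Alas1 the control triangles stand below the squares. Ptges is a gene of the score, so its levels are shaped by the choice of members.

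Pattern recognition receptors were higher in members, more so in the control library, where 7 of 10 tested were higher past 1.5-fold against 3 of 10 in the mutant library, with medians of 0.86 and 0.37. Clec4n (Dectin-2), a C-type lectin of fungal recognition, stood at 32.4 against 12.2 CPM (log2 ratio 1.41, 1.21 to 1.59) and 48.5 against 23.4 CPM (1.05, 0.88 to 1.22). Tlr2, which senses lipoproteins, stood at 70.8 against 33.6 CPM and 141 against 93.5 CPM, and Cd14, a co-receptor for lipopolysaccharide, at 185 against 99.0 CPM and 163 against 89.4 CPM. Fcgr1, a high-affinity IgG receptor that interferon raises, stood at 61.4 against 24.95 CPM in the control and at 172 against 133 CPM in the mutant library. Clec4d, the neighbour of Clec4e that forms a receptor complex with it, differed by less than 1.5-fold (886 against 723 CPM and 956 against 741 CPM). In this list the medians moved little without the members led by Acod1 (0.76 and 0.36).

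The NF-kB subunits and their feedback inhibitors differed little. Of 11 tested, 1 was higher past 1.5-fold in each library and none was lower, with medians of 0.18 and 0.32. That gene was Nfkbie, an inhibitor of NF-kB, at 28.0 against 17.4 CPM and 42.8 against 24.1 CPM. Nfkbia, the best known of these inhibitors, stood at 429 against 412 CPM and 592 against 480 CPM.

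Antioxidant genes under NRF2 were higher in part. Of 20 tested, 4 and 5 were higher past 1.5-fold and none was lower, with medians of 0.31 and 0.36. Hmox1, heme oxygenase 1, stood at 504 against 215 CPM (log2 ratio 1.23, 1.18 to 1.27) and 396 against 185 CPM (1.10, 1.04 to 1.16). Nqo1, a quinone reductase, had log2 ratios of 0.66 and 0.85, and the peroxiredoxin Prdx1 of 0.64 in both libraries. Fth1, the ferritin heavy chain and the most abundant gene of the list, stood at 57570 against 36173 CPM and 74484 against 55398 CPM. Its ratio passed 1.5-fold in the control library (0.67) and not in the mutant library (0.43). Gclc, which makes the precursor of glutathione, had ratios of 0.39 and -0.35.

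Targets of ATF4 in the amino acid response did not move together. Of 9 tested, Atf3 (0.84 and 0.73) and Cebpb (0.99 in both) were higher past 1.5-fold in each library. Psat1 (-0.44 and -1.14) and Shmt2 (-0.55 and -0.98), enzymes of serine and glycine synthesis, were lower past 1.5-fold in the mutant library. Slc3a2, the partner chain of the Slc7a11 transporter, stood at 167 against 119 CPM and 211 against 178 CPM, both under 1.5-fold, and Atf4 itself at 85.1 against 97.5 CPM and 101 against 121 CPM.

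The metabolic neighbours of Acod1 were near their library level. Of 14 citrate cycle and arginine genes tested, Ass1 was higher past 1.5-fold (0.61, 0.51 to 0.71) and Idh3a lower (-0.59, -0.73 to -0.46) in control members, and Idh2 lower (-0.65, -0.93 to -0.37) in mutant members. Nos2, the inducible nitric oxide synthase, was too low to be tested but stood at 7.43 against 0.471 CPM in the control and 65.2 against 5.07 CPM in the mutant library, with a UMI in 9.54% of control and 37.8% of mutant members. None of 18 glycolysis and hypoxia genes passed 1.5-fold in either library (median 0.15 in both). The same held for 5 genes of prostaglandin and leukotriene synthesis other than Ptges. Ptgs2, the inducible cyclooxygenase that supplies Ptges, was low at 3.96 against 1.71 CPM and 17.9 against 2.63 CPM.

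OC genes were lower in control members and mixed in mutant members. In control members all 4 tested were lower past 1.5-fold, with a median of -1.18. Jdp2, an AP-1 family factor needed for OC formation, stood at 53.2 against 158 CPM, Nfatc1, the central OC transcription factor, at 20.5 against 53.4 CPM, Ctsk, the collagen-degrading cathepsin K, at 29.8 against 58.5 CPM, and Acp5, which encodes TRAP, at 54.5 against 108 CPM. In mutant members Jdp2 was also lower (22.4 against 62.3 CPM), and Nfatc1 stood at 20.5 against 30.5 CPM (log2 ratio -0.57, just under 1.5-fold), while Ctsk was higher past 1.5-fold (35.1 against 19.9 CPM, log2 ratio 0.82, 0.62 to 1.02) and Acp5 was at 76.8 against 68.8 CPM. Ctsk had a UMI in 25.7% of control and 25.6% of mutant members, compared with 24.2% and 15.0% of the rest.

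At 5000 UMIs per cell, 18 of 304 control members (5.92%, 3.55 to 9.20) passed an OC gate of 3 or more UMIs in the sum of Acp5, Ctsk, Dcstamp and Mmp9, compared with 9.67% (8.92 to 10.5) of the rest, a difference of -3.75 percentage points (-6.25 to -0.38). In the mutant library 11 of 262 members (4.20%, 2.11 to 7.39) did so and 3.09% (2.63 to 3.61) of the rest, with a difference of 1.11 points (-1.04 to 4.33) whose interval includes 0. Without thinning the shares were 27.3% against 28.1% and 34.4% against 22.5%. The S100 cells passed the gate at 5000 UMIs in 0 of 14 (up to 23.2%) and 2 of 70 cells (2.86%, 0.348 to 9.94). These intervals, from few cells, include the shares of the members and of the rest alike. The comparison could therefore tell neither from background at this depth.

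Cycling genes were lower in members, mainly in the mutant library. Of 14 tested, 5 were lower past 1.5-fold in the control (median -0.25) and 10 in the mutant library (median -1.24), and none was higher. Mitotic genes differed most. Cenpf, a kinetochore protein, stood at 43.7 against 78.8 CPM and 17.4 against 99.1 CPM, and Ube2c, which drives exit from mitosis, at 137 against 264 CPM and 60.7 against 278 CPM. The 4 listed genes of DNA synthesis in S phase (Mcm2, Mcm5, Pcna and Rrm2) all differed by less than 1.5-fold, with log2 ratios from -0.09 (Mcm5) to 0.21 (Pcna) in the control library and from -0.34 (Rrm2) to -0.02 (Pcna) in the mutant library. At 5000 UMIs the share of cells with 3 or more UMIs in the sum of Aurka, Cdk1, Mki67 and Top2a was 39.1% of control members and 39.7% of the rest, a difference of -0.56 points (-6.22 to 5.31), and 18.7% against 33.8% in the mutant library, a difference of -15.1 points (-19.8 to -9.63). Without thinning the shares were 67.1% against 72.7% and 44.3% against 63.6%. The S100 cells, at 64.3% and 62.9%, passed this gate more often than members or the rest, and so gave no measure of background for it.

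Genes of tissue-type macrophages went opposite ways. Of 8 tested, 1 was higher in control members (Igf1, 202 against 130 CPM) and none was lower, while 3 were lower in mutant members and none was higher, with medians of 0.33 and -0.54. In control members led by Acod1 all 8 were higher past 1.5-fold (median 0.99), compared with 1 in the other control members (0.24). Over all 4748 genes tested, 566 were higher and 643 lower in control members led by Acod1, against 115 and 46 in the others. Calls in both directions were thus more frequent in those 26 cells. Mutant members led by Acod1 and the other mutant members had medians of -0.61 and -0.54. Apoe, a lipid carrier, stood at 133 against 101 CPM in the control and 490 against 998 CPM in the mutant library, and C1qa, a chain of complement C1q, at 250 against 207 CPM and 65.7 against 122 CPM. Among 15 lipid-handling genes, 1 was higher past 1.5-fold in each library and it was a different gene, Fabp4 (0.80) in the control and Lpl (0.79) in the mutant library. Of the 5% of cells highest in summed tissue-type genes, 31 of 304 were members in the control and 6 of 262 in the mutant library. These shares were 10.2% (7.03 to 14.2) and 2.29% (0.845 to 4.92), beside 5% members among all kept cells.

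Outside the lists, the 10 genes with the highest ratios in both libraries and the 5 with the lowest were named by a fixed rule. Ifit1bl1, an ISG of the Ifit family, was the highest at 54.8 against 2.36 CPM (log2 ratio 4.54) and 169 against 15.9 CPM (3.41). Without the members led by Acod1 its ratios were 1.22 and 0.07, so that in the mutant library it rested on those members. In the control library 61.6% of its member UMIs came from 1 cell, and in the mutant library 11.9%. It has near-identical relatives, so its UMIs may be shared with them. AW112010, a long noncoding RNA induced in inflammation, followed at 72.5 against 4.06 CPM and 660 against 112 CPM, and its UMIs were also concentrated, with 524 CPM in control members led by Acod1 and 29.96 CPM in those led by Clec4e. Isg20, an interferon-induced exonuclease (log2 ratio 1.85 and 1.15), Phf11b (1.64 and 1.13) and Cd274, the checkpoint ligand PD-L1 (1.09 and 1.65), were likewise higher in members led by Acod1 than in those led by Clec4e in both libraries.

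The other genes of this group were higher in both kinds of member. Vcan, the matrix proteoglycan versican, stood at 86.4 against 29.0 CPM and 57.3 against 18.7 CPM. Alas1, the rate-limiting enzyme of heme synthesis, stood at 99.4 against 36.6 CPM and 116 against 36.6 CPM, and C3, the central complement component, at 148 against 58.3 CPM and 351 against 142 CPM. Alas1 was at 67.9 CPM in control members led by Acod1 and at 94.4 CPM in those led by Clec4e, and at 113 and 117 CPM in the mutant library. Tnfrsf1b, a TNF receptor, had log2 ratios of 1.13 and 1.32, and the stress-induced Nupr1 of 1.09 and 1.30. The 5 lowest were Cdc20, Cenpa and Cdkn3, which act in mitosis and the cell cycle, Pde4d, which degrades cyclic AMP, and Ivns1abp. Cenpa, the histone variant of centromeres, stood at 57.5 against 115 CPM and 24.6 against 124 CPM, and Pde4d at 16.7 against 33.7 CPM and 16.1 against 30.8 CPM.

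Across all kept cells, the genes whose levels were most alike to the score, by the mean Pearson's r over both libraries among 4780 genes, were Sod2 (0.35), Cebpb (0.32), C3 (0.27), Cybb (0.27) and Fth1 (0.26). Cebpb encodes a transcription factor of myeloid inflammatory genes and Cybb the catalytic chain of the phagocyte oxidase. Depth and library are shared by these cells, and r over 6087 and 5242 cells is given as a description. None of the 5 is on the ISG list used here, which does not hold every interferon-induced gene. Cebpb stood at 551 CPM in control members led by Acod1 and 477 CPM in those led by Clec4e.

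The lists were also followed along the score. Cytokines and chemokines summed to 799 CPM in the lowest 20% of control cells, to 2081 CPM in the 5% just below the members and to 2805 CPM in members, and to 1310, 3447 and 4990 CPM in the mutant library. ISGs summed to 1019, 1640 and 2165 CPM and to 4444, 6241 and 7628 CPM. OC genes were highest in the control cells with the lowest score, at 864 CPM, and stood at 208 CPM in control members, while cells from the top 40% down to the members differed little (190 to 231 CPM). Cycling genes lay between 1813 and 1998 CPM in the control cells below the members and at 1554 CPM in members. In the mutant library they stood at 1504 CPM in the 5% below the members and at 988 CPM in members.

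**Figure D5:**
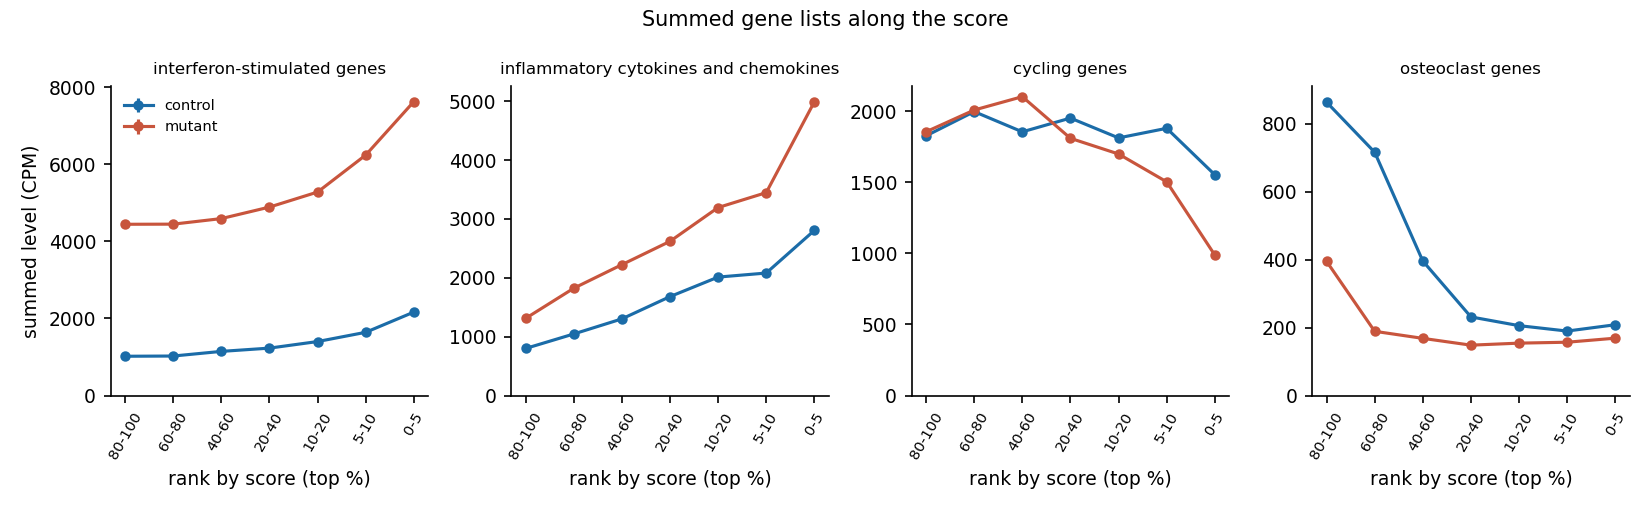
Summed level in CPM of 4 gene lists in cells ranked by the score, from the lowest 20% (left) to the members (top 5%, right), for the control (blue) and mutant (red) library, with 95% Poisson intervals smaller than the points. ISGs and cytokines are highest in members in both libraries, OC genes are highest in low-scoring control cells at 864 CPM, and cycling genes are lowest in mutant members at 988 CPM.

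Mutant members were also compared with control members. The cutoffs differ as given above, so part of any difference may lie in where each library was divided. Of 5020 genes tested, 562 (11.2%) were higher and 411 (8.19%) lower in mutant members past 1.5-fold. In the rest of the libraries 650 of 5219 (12.5%) were higher and 294 (5.63%) lower. When totals left out mitochondrial and ribosomal protein genes, 526 were higher and 662 lower in members, so the balance of directions rests on the scaling. All 19 ISGs tested were higher in mutant members with a median log2 ratio of 1.85, and all 18 tested in the rest with a median of 2.12. Cytokines and chemokines were mixed, with 5 of 9 higher and 2 lower in mutant members. Ccl5 had a log2 ratio of 2.25 in members and 2.50 in the rest, and Ccl7, a monocyte chemokine, of -1.07 and -1.19. The 5 genes of the score were all higher in mutant members past 1.5-fold, led by Acod1 at 1.66 (2.90 in the rest). Members were chosen on these genes with a higher cutoff in the mutant library, so this follows largely from the rule. In the rest only 2 of the 5 reached the level for the test, and both were higher (0.68 and 2.90). Of the others, Ptges was nearly level there (8.52 and 9.50 CPM), while Cxcl3 (1.58 and 5.31 CPM) and Slc7a11 (9.16 and 18.3 CPM) were higher in the mutant library.

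For other groups the difference between libraries was not the same in members as in the rest. Cycling genes were lower past 1.5-fold for 9 of 13 in mutant members (median -0.94), compared with 1 of 14 in the rest (0.07). Tissue-type genes were lower for 5 of 8 (median -1.02), compared with 3 of 9 (-0.03). OC genes were lower for 1 of 4 (0.12), compared with 5 of 5 in the rest (-1.34). By the difference of both log2 ratios, Ctsk was the highest gene at 1.80. Its ratio of mutant over control was 0.24 (-0.04 to 0.51) in members and -1.56 (-1.62 to -1.49) in the rest. Cd5l, a secreted macrophage survival protein, followed at 1.42, but 54.1% of its UMIs in mutant members came from 1 cell. Wwc1 (1.38), the noncoding Mir99ahg (1.33) and the sterol exporter Abcg1 (1.14) came next.

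At the other end stood ISGs and Ccl12, whose difference between libraries was smaller or more negative in members than in the rest. Iigp1, an interferon-induced GTPase, had a log2 ratio of mutant over control of 2.40 in members and 5.10 in the rest, a difference of -2.70. Slfn1 (-2.20), Ifi208 (-2.01) and Ms4a4c (-1.86) followed. Iigp1 was at 7.18 CPM in control members and 0.284 CPM in the rest, and 46.6% of its UMIs in control members came from 1 cell. Ccl12 (-1.97) was at 97.1 CPM in control and 20.01 CPM in mutant members, and its control UMIs were mostly in cells led by Acod1, at 529 CPM against 50.0 CPM in those led by Clec4e. In the mutant library these levels were 60.9 and 6.68 CPM.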

How the data were processed

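The authors deposited raw UMI counts per gene and barcode, from 10x Genomics 3′ libraries, and the file headers name Cell Ranger 6.1.0. GRCm39 is named as the genome. A method for doublets, the strand setting, and whether the counts precede aggregation of libraries were not given in the sources used here. Only the 3′ end is read, so a recombined Arid1a transcript with an intact end still gives counts. Of 32544 gene identifiers, 31977 matched GENCODE M39. Symbols listed more than once (38) were kept apart by identifier, and 3 listed symbols were not found exactly 1 time. Genes with near-identical copies (the Ifit, Ccl and Cxcl families) or with another gene on the opposite strand are uncertain. The latter include many of the genes named in the text, among them Acod1, Acp5, Alas1, C3, Ccl5, Cd274, Cdc20, Cebpb, Cenpf, Csf1r, Cxcl10, Cybb, Fth1, Gbp2, Isg15, Isg20, Jdp2, Lpl, Nfatc1, Nos2, Pcna, Ptges, Slc7a11, Sod2, Ube2c and Vcan.

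The filters left out 186 control and 202 mutant barcodes for genes or mitochondrial share, 168 and 351 for depth, and 14 and 70 for S100a8 and S100a9. Groups came from the genotype in the labels. Members, lists and splits were chosen with earlier results of these data known. Doublets were scored by simulation (2 per barcode, 50 neighbours) and called at 0.8% per 1000 barcodes (324 control and 266 mutant). They were kept, and left out in an alternative. For a difference between shares, the interval used the square-and-add method. PCR copies were collapsed by UMIs. Thinning drew 5000 UMIs per cell without replacement. Named genes were all 5 genes of the score, tested list genes with the highest and lowest ratios first, the 10 highest and 5 lowest by the smaller of both ratios, the 5 highest and 5 lowest differences between libraries (at least 50 UMIs in members of each), and the 5 most alike to the score. A few further list genes were named after their values were seen. Scripts were tested on simulated counts. Python 3.11.15, numpy 2.4.6, scipy 1.17.1, pandas 2.3.3 and matplotlib 3.10.9 were used.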

Additional observations from a re-analysis of the deposited data

How the results depend on the processing

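No paired analysis was possible because there is 1 library per genotype, and for the same reason no library could be left out. The 10 highest and 5 lowest named genes had 0 changes of direction in 300 values, under the alternatives that can move a ratio. They were named for extreme ratios in both libraries, so a change of direction was unlikely from the start. Their sizes did move, as Ifit1bl1 in the mutant library went from 3.41 to 0.07 without the members led by Acod1. The log2 ratio of the summed 5 genes (3.26 control, 3.05 mutant) was 3.43 and 3.21 for the top 3%, 3.07 and 2.85 for the top 10%, 2.89 and 2.66 with equal weight per gene, 3.01 and 2.88 with scores at 5000 UMIs, 3.31 and 3.09 without doublets, and 3.19 and 2.998 with totals without mitochondrial and ribosomal protein genes. The median of cytokines and chemokines (1.48 control, 1.34 mutant) was 1.72 and 1.43 for the top 3%, 1.26 and 1.18 for the top 10%, 1.40 and 1.19 with scores at 5000 UMIs, 1.56 and 1.25 without doublets, and 1.19 and 1.23 for genes of at least 5 CPM. In the mutant library it was 1.25 with equal weight per gene and 1.41 with equal weight per cell. Without the members led by Acod1, an alternative chosen after seeing the data, it was 1.00 and 0.78. The ISG median (1.17 control, 0.89 mutant) was 0.37 and 0.39 there, and in the mutant library 0.54 for the top 10% and 0.46 at 50 CPM. Genes higher in members of both libraries (83) numbered 53 for the top 10%, 35 at 50 CPM, 147 at 5 CPM and 27 past 2-fold. Those lower (37) numbered 70 for the top 3%, 7 for the top 10%, 17 with scores at 5000 UMIs, 60 with the reduced totals, 10 at 50 CPM, 84 at 5 CPM and 3 past 2-fold. Genes higher in mutant than in control members (562) numbered 322 at 50 CPM, 1002 at 5 CPM and 237 past 2-fold. Those lower (411) numbered 260 with equal weight per gene, 662 with the reduced totals, 224, 871 and 93. The share of mutant cells at the control cutoff (15.0%) was 10.3% for the top 3%, 24.8% for the top 10%, 16.7% with scores at 5000 UMIs and 13.7% with the reduced totals. It was 4.64% with equal weight per gene, which divides each gene by its own library mean and so removes the difference between libraries by construction. The difference in the OC gate of the mutant library (1.11 points) was 4.46 with a gate of 2 UMIs. The median of OC genes in mutant members (-0.21) turned to 0.16 at 50 CPM, where fewer genes are left. Apart from the changes by construction, the causes were not tested. As the filter took the mean of members and rest, called genes can be under 20 CPM in members and rest on few UMIs, such as Cdc20 with 154 in control and 67 in mutant members.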

Other observations

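Members with a UMI of Cxcl3 or Slc7a11 were higher in antioxidant genes than those without, and so were control members with a UMI of Acod1. In control members the NRF2 list summed to 124011 CPM in the 49 cells with a Cxcl3 UMI and to 94281 CPM in the 255 without, and to 117123 CPM in the 115 cells with a Slc7a11 UMI and 87332 CPM in the 189 without. In mutant members the values were 126093 and 114001 CPM for Cxcl3, and 122891 and 109286 CPM for Slc7a11. For Acod1 the control values were 105134 CPM in the 199 cells with a UMI and 86898 CPM in the 105 without. Ptges went the other way, at 96466 and 102494 CPM in control and 112932 and 120919 CPM in mutant members. Most of the NRF2 sum is Fth1, at 57570 of 99536 CPM over all control members and 74484 of 117010 CPM over all mutant members. ISGs were lower with Slc7a11, at 1786 CPM with and 2429 CPM without a UMI in control members and at 6888 and 8601 CPM in mutant members. With Cxcl3 they were also lower in control members (1750 and 2255 CPM) and nearly level in mutant members (7508 and 7668 CPM). With Acod1 they were higher in control members (2527 and 1350 CPM). Members with a Slc7a11 UMI were deeper, with median depths of 26860 and 23049 UMIs in the control and 23605 and 21834 UMIs in the mutant library, and the part of depth in these values was not tested.

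Ptges and ISGs were also split. Control members with a Ptges UMI (133 cells) had summed ISGs of 1711 CPM and those without (171 cells) of 2603 CPM, and mutant members of 6998 and 8233 CPM. A member without Ptges reached the cutoff on the other genes of the score. This split may therefore restate the one by leading gene and is given as a description. Median depth was 26087 and 22863 UMIs in the control and 25157 and 21072 UMIs in the mutant members. Immediate early and heat shock genes, which handling of cells can induce, were higher past 1.5-fold in members for 0 of 9 genes tested in the control and 2 of 9 in the mutant library. These were the transcription factor Klf2 (0.70) and Ier3 (0.64). Egr1, below the level needed for the test, was at 1.24 against 1.33 CPM in the control and 9.92 against 1.88 CPM in the mutant library. Cxcl9, an interferon-gamma induced chemokine also below that level, was at 24.3 CPM in control members, above the level in the rest, with 59.7% of its member UMIs in 1 cell. Of the 5% of cells highest in class II and dendritic genes, 24 of 304 were members in the control and 24 of 262 in the mutant library. These shares were 7.89% (5.12 to 11.5) and 9.16% (5.96 to 13.3), beside 5% members among all kept cells.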
